A study of Mus musculus with 8 samples.

Results

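The miR-297, miR-466, miR-467 and miR-669 families are groups of mature microRNAs (miRNAs) most of whose genes lie in 1 intron of the polycomb group gene Sfmbt2. Members were taken by name from a small RNA-seq table of mouse cells: every mature miRNA named miR-297, miR-466, miR-467 or miR-669, with any suffix, was kept. The rule gave 55 of the 1073 miRNAs measured, 4 of the miR-297 family, 23 of miR-466, 10 of miR-467 and 18 of miR-669. No measured value was used to choose them.

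The cells were embryonic stem cells (ESC) and the cells obtained from them as embryoid bodies under retinoic acid (RA-DIFF), collected after plating. ESC grown without feeder cells for 4 passages were used for differentiation. At each stage a wild-type line was set beside a line with the genotype Hdh ex4/5/ex4/5 (Htt-null), in which both copies of the huntingtin gene Htt carry a targeted null allele. Each of the 4 combinations of stage and genotype was given 1 small RNA library and 1 poly-A RNA library, from 1 line per genotype, so no difference described here has a replicate check and no p-value is given. The 95% intervals are exact binomial (Clopper-Pearson) intervals and, since reads copied by PCR are not independent molecules, they cover counting error only.

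Small RNA counts added up to 12888905 in wild-type ESC, 11976744 in Htt-null ESC, 25656673 in RA-DIFF labelled wild type and 24290346 in RA-DIFF labelled Htt-null. In RA-DIFF, miR-10a-5p and miR-10b-5p alone took 79.9% and 83.3% of the counts (labelled wild type and Htt-null), against 0.438% and 0.293% in wild-type and Htt-null ESC. The TMM factors scale the libraries to each other after leaving out the most extreme miRNAs. They were 1.56 for wild-type ESC, 1.84 for Htt-null ESC, and 0.697 and 0.50 for RA-DIFF labelled wild type and Htt-null. The targeted gene was checked in the poly-A libraries. Htt had 14385 counts in wild-type ESC and 7260 in Htt-null ESC (166 and 111 TMM-normalised counts per 1000000 reads, CPM), but 8212 in RA-DIFF labelled wild type and 9722 in the one labelled Htt-null (73.3 and 98.7 CPM). In RA-DIFF the level of Htt thus went against the labels, and the small RNA libraries, which hold no Htt mRNA, could not be checked in this way. Since Htt was still counted in Htt-null ESC, its whole-gene level cannot settle the genotype of a library either way. The RA-DIFF libraries are therefore named by their labels throughout. Neural markers (Nes, Pax6, Sox1, Tubb3, Map2 and Dcx) summed to 70.2 and 119 CPM in wild-type and Htt-null ESC and to 2999 and 1995 CPM in the RA-DIFF libraries labelled wild type and Htt-null, while ES cell markers (Pou5f1, Nanog, Sox2, Esrrb, Zfp42 and Klf4) summed to 3588, 3487, 256 and 224 CPM in the same order.

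A miRNA is cut from a hairpin in a longer transcript by Drosha with Dgcr8 and then by Dicer1, and 1 strand of the resulting duplex, from the 5′ (5p) or the 3′ (3p) side of the hairpin, is loaded onto an Argonaute protein. Its seed, the stretch near the 5′ end, pairs with target mRNAs, whose translation or stability is lowered. Sfmbt2 encodes an MBT repeat protein that works with the DNA-binding protein Yy1. In the mouse it is imprinted and expressed from the paternal copy in extraembryonic tissue, and the rodent-specific miRNA cluster in its intron is best known from the placenta.

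The sequences of 3 members were matched in RefSeq (GRCm38.p6) and are shown because they carry the short alternating repeats for which these families are known, with the seed (bases 2 to 8) in capitals.
miR-466k: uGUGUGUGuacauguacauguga
miR-466i-3p: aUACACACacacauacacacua
miR-467h: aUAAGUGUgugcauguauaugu
The longest run in which the same bases alternate is 9 bases in miR-466k, 11 in miR-466i-3p and 7 in miR-467h. The first of them is read from the plus strand at chr3:85467396-85467418, the next at chr13:17747552-17747573 and the last at chr9:115381898-115381919, so all 3 come from outside Sfmbt2. Their seeds differ from each other, and only miR-467h shares its seed with another measured miRNA outside the families, miR-668-5p. The remaining 52 members are described by name only.

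On GRCm38 Sfmbt2 (ENSMUSG00000061186) lies on the plus strand of chromosome 2, at chr2:10370510-10595253 in the deposited annotation. RefSeq placed 71 hairpins of the 4 families within it, all on the plus strand and all in intron 11 of its transcript, at chr2:10461473-10523944, which is 62472 bp long. By family these were 5 hairpins of miR-297, 23 of miR-466, 14 of miR-467 and 29 of miR-669. In the middle of the cluster, at chr2:10476346-10503877, 35 of the hairpins form a tandem array in which Mir467a hairpins follow each other at a median spacing of 2462 bp; Mir467a has 10 copies there and Mir669a, over the whole intron, 12. Of the 55 members, 51 have at least 1 copy in this intron and 50 have all their copies there. The exceptions are miR-297a-5p, which also has a copy on chromosome 7, and miR-466i-5p, miR-466i-3p, miR-466k and miR-467h, for which no copy lies in Sfmbt2. The common description as miRNAs of the Sfmbt2 intron therefore does not cover these 4 members, which made up between 1.28% and 2.57% of the families' counts. In all, 11 members are made from several hairpins, and their counts cannot be assigned to one of them. Close relatives that differ by a base or so can also exchange reads, because 1 difference was allowed in mapping, and sums by family are given for that reason. RefSeq lists 25 further mature names of these families, which were not analysed here. The sums, shares and levels below therefore cover the 55 members only, and the totals of the whole families are not known.

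All members together were counted 7726 times in wild-type ESC, 5245 in Htt-null ESC, 5155 in RA-DIFF labelled wild type and 2802 in the one labelled Htt-null. After TMM scaling the sums were 383 CPM (95% interval 375 to 392), 239 CPM (232 to 245), 288 CPM (280 to 296) and 231 CPM (222 to 240). Wild-type ESC thus stood highest, and Htt-null ESC and the RA-DIFF library labelled Htt-null had overlapping intervals. Without TMM scaling the same sums were 599, 438, 201 and 115 CPM of the library, so that the order of the ESC and RA-DIFF libraries depends on the scaling.

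**Figure D1:**
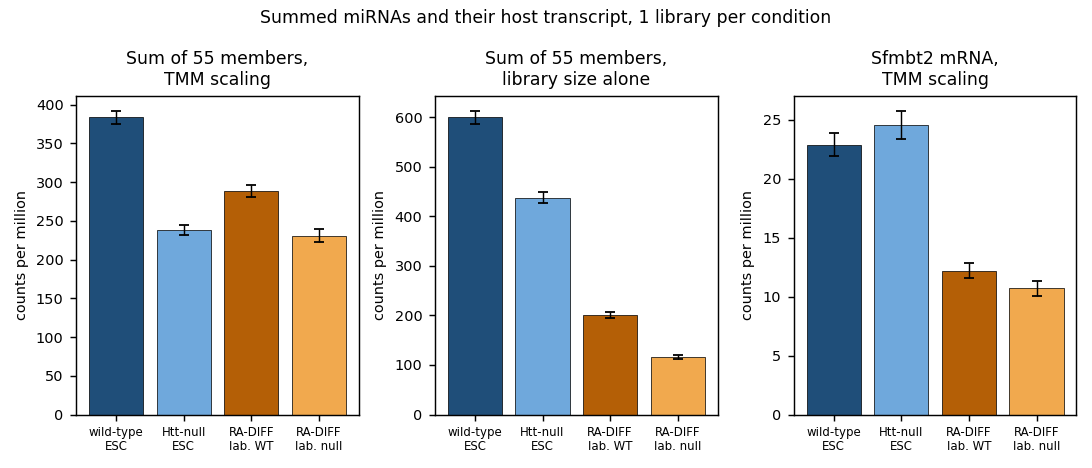
Summed level of the 55 members with TMM scaling (left) and by library size alone (middle), and level of Sfmbt2 mRNA (right), in CPM, for 1 library per condition (blue, ESC; orange, RA-DIFF by its label). Bars start at 0 and error bars are 95% exact counting intervals; the sum is 383 CPM in wild-type and 239 CPM in Htt-null ESC while Sfmbt2 is at 22.9 and 24.5 CPM.

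The 55 members were low-abundance miRNAs in these cells, and a few names carried most of their reads. The most abundant member, miR-467a-5p, ranked 179 among the 1073 miRNAs in wild-type ESC, 229 in Htt-null ESC, 181 in RA-DIFF labelled wild type and 228 in the one labelled Htt-null. Together with miR-669c-5p, miR-467d-3p, miR-467d-5p and miR-467e-5p it took 55.2%, 53.1%, 60.1% and 56.4% of the members' counts in the same order. The expression limit, a log2 CPM averaging above 0 over the 4 libraries, was passed by 33 of the 55 members (60.0%) and by 650 of the 1073 miRNAs (60.6%). All 4 members of miR-297 passed, with 10 of 23 in miR-466, 8 of 10 in miR-467 and 11 of 18 in miR-669. None of the 22 members under the limit had more than 28 counts in a library, and together they held 193 of the 7726 counts in wild-type ESC. A count of 0 was found in at least 1 library for 5 of these 22, where 3 counts, or between 0.136 and 0.247 TMM-normalised CPM, would still be possible. Of the 33, 26 were above 1 CPM in every library.

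Among the members analysed, the miR-467 family was the largest contributor. It had 4080 counts in wild-type ESC, 2715 in Htt-null ESC, 2915 in RA-DIFF labelled wild type and 1359 in the one labelled Htt-null, or 52.8%, 51.8%, 56.5% and 48.5% of all members' counts. The miR-669 family followed with 2271, 1509, 1356 and 879 counts, the miR-466 family with 1059, 762, 547 and 391, and the miR-297 family with 316, 259, 337 and 173. These shares do not depend on how the libraries are scaled. In ESC they were close between the genotypes, with miR-669 at 29.4% (28.4 to 30.4) in wild type and 28.8% (27.5 to 30.0) in Htt-null. Between the RA-DIFF libraries 3 of the 4 shares had intervals that do not overlap: miR-467 took 56.5% (55.2 to 57.9) in the library labelled wild type and 48.5% (46.6 to 50.4) in the one labelled Htt-null, miR-669 took 26.3% (25.1 to 27.5) and 31.4% (29.7 to 33.1), and miR-466 took 10.6% (9.78 to 11.5) and 14% (12.7 to 15.3). The share of miR-297 was 6.54% (5.88 to 7.25) and 6.17% (5.31 to 7.13), with overlapping intervals. Within miR-467, miR-467a-5p alone took 29.1% and 19.1% of all members' counts in these libraries. The rest of that family took 27.5% (26.3 to 28.7) and 29.4% (27.8 to 31.2). Shares are parts of a whole, so a lower share of miR-467a-5p raises those of the other members.

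**Figure D2:**
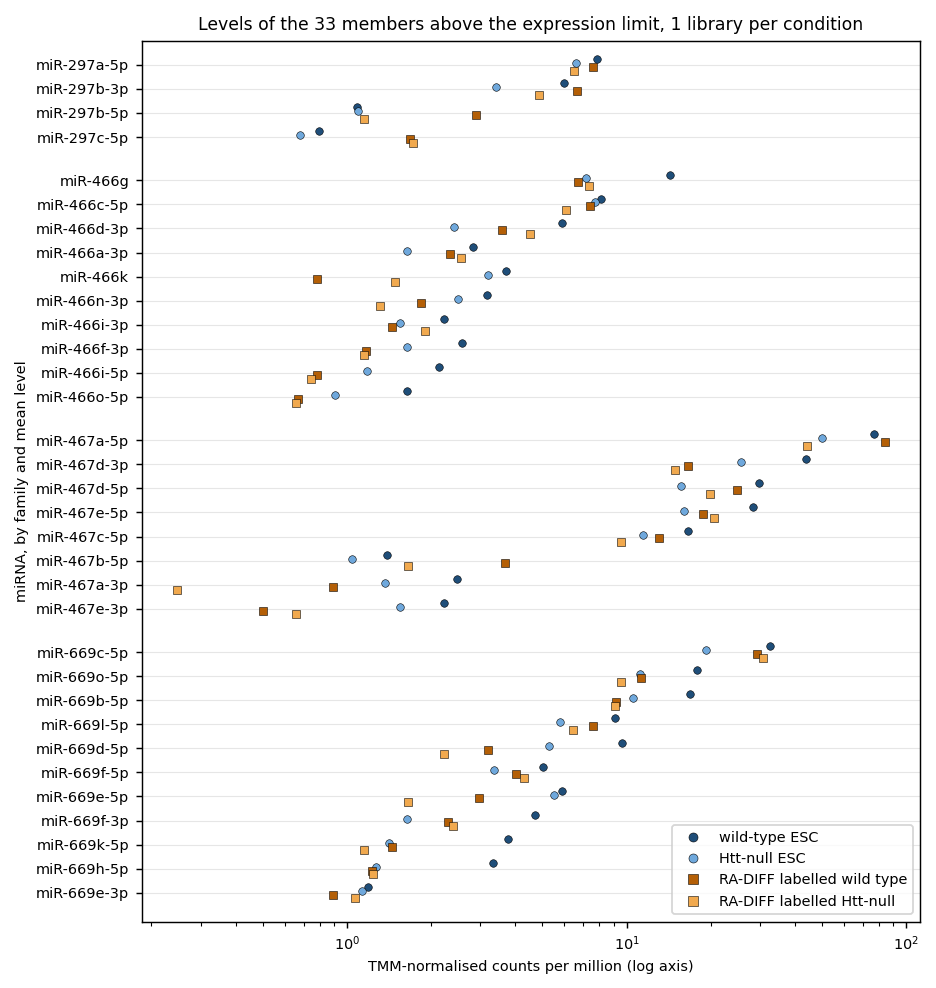
TMM-normalised CPM (log axis) of the 33 members above the expression limit in each of the 4 libraries, ordered by family and mean level (circles, ESC; squares, RA-DIFF; dark, labelled wild type; light, labelled Htt-null). Of the miRNAs shown, miR-467a-5p is highest, at 44.0 to 83.8 CPM, and the light circle (Htt-null ESC) lies to the left of the dark one in 32 of 33 rows, with miR-297b-5p at about equal values.

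In ESC, the families were lower in the Htt-null than in the wild-type library, and nearly all members shared the direction. A member or any other miRNA above the limit was called higher or lower when its log2 ratio passed 0.75. By this rule of size 0 of the 33 members were higher in Htt-null ESC, beside 23.2% of all 650 miRNAs, and 14 were lower (42.4%), beside 15.1% of all. Of the 26 members above 1 CPM in every library, 11 were lower. The limit itself bears on the rest, such as miR-466o-5p, which was above 1 CPM in wild-type ESC only (1.64 CPM). The calls rest on size alone. With an exact test at an assumed dispersion of 0.1 added to the limits, 1 of the 14, miR-669f-3p, was still called lower, beside 2.62% of all 650 miRNAs. Counts of miR-669f-3p were 95 in wild-type and 36 in Htt-null ESC (4.71 and 1.64 CPM), a log2 ratio of -1.46 (-2.12 to -0.96). The 14 comprised 1 of the 4 members of miR-297, 4 of 10 of miR-466, 4 of 8 of miR-467 and 5 of 11 of miR-669. A log2 ratio under 0 was found in 32 of the 33, and in 331 of the 650. The members' median was -0.67, against -0.03 over all 650 miRNAs, and their ratios ran from -1.46 to 0.00. The counting interval lay wholly below the median of all miRNAs for 20 members, beside 35.2% of all 650, and above it for 0, beside 36.3%. Such counts depend on depth, since abundant miRNAs have narrow intervals. Summed over all 55 members, whether above the limit or not, the log2 ratio was -0.68 (-0.73 to -0.63).

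The same difference appeared in each family's sum. The log2 ratio was -0.41 (-0.65 to -0.17) for miR-297, -0.60 (-0.74 to -0.46) for miR-466, -0.71 (-0.78 to -0.64) for miR-467 and -0.71 (-0.81 to -0.62) for miR-669. The 5p members summed to a log2 ratio of -0.66 (-0.72 to -0.60) and the 3p members to -0.77 (-0.88 to -0.65). Without miR-467a-5p, which alone held 20.1% of the counts in wild-type ESC, the sum over the rest was -0.70 (-0.76 to -0.64), an alternative added after seeing the data.

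Among the abundant members, miR-467d-5p had 599 counts in wild-type and 343 in Htt-null ESC (29.7 and 15.6 CPM), a log2 ratio of -0.92 (-1.13 to -0.74). Its partner from the other side of the hairpin, miR-467d-3p, had 884 and 564 counts (43.9 and 25.7 CPM) and a log2 ratio of -0.77 (-0.93 to -0.62). For miR-669c-5p the counts were 657 and 423 (32.6 and 19.2 CPM) with a log2 ratio of -0.76 (-0.94 to -0.58). All 3 were lower in the Htt-null library beyond counting error. Of the remaining members with at least 100 counts, miR-466d-3p was lowest in ratio, with 118 and 53 counts (5.85 and 2.41 CPM) and a log2 ratio of -1.24 (-1.78 to -0.80). It was followed by miR-466g, with 288 and 157 counts (14.3 and 7.14 CPM) and a log2 ratio of -0.99 (-1.29 to -0.71).

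The most abundant member, miR-467a-5p, fell short of the limit for a call, with 1551 and 1101 counts (77.0 and 50.1 CPM in wild-type and Htt-null ESC) and a log2 ratio of -0.62 (-0.73 to -0.51). The same held for miR-669o-5p (359 and 246 counts, -0.67), miR-669b-5p (340 and 231 counts, -0.68) and miR-467c-5p (335 and 252 counts, -0.53), whose intervals all lay below 0. Since a log2 difference of 0.75 fell in the midst of the members' ratios, the number called depends on small shifts: miR-466a-3p, at -0.749, was just short of it.

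A few members were close to level between the genotypes in ESC. Counts of miR-466c-5p were 164 in wild type and 169 in Htt-null (8.14 and 7.69 CPM), a log2 ratio of -0.08 (-0.40 to 0.24). Those of miR-669e-5p were 118 and 121 (5.85 and 5.50 CPM), a log2 ratio of -0.09 (-0.47 to 0.29), and those of miR-297a-5p 158 and 145 (7.84 and 6.60 CPM), a log2 ratio of -0.25 (-0.58 to 0.09). For these 3 the interval includes 0.

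**Figure D3:**
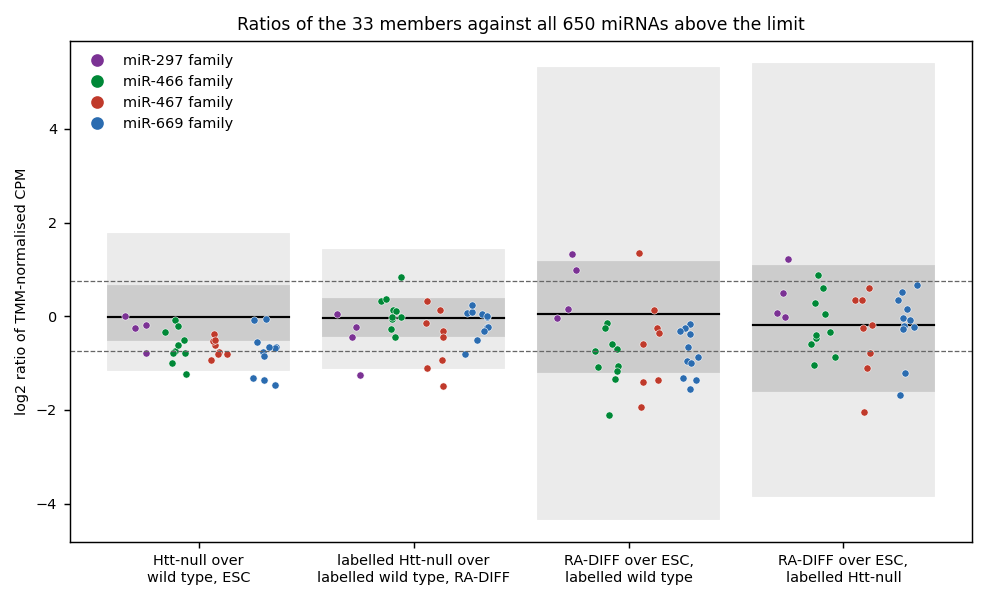
Log2 ratio of TMM-normalised CPM of the 33 members above the limit (points, coloured by family, spread sideways for visibility) in the 4 comparisons. Light and dark grey boxes hold the middle 90% and 50% of all 650 miRNAs above the limit, the black line is their median and dashed lines mark 0.75 and -0.75; in ESC all points lie at or below about 0, with a median of -0.67 against -0.03 for all miRNAs.

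Between the RA-DIFF libraries, the families as a whole were close to the other miRNAs, and a few members stood out. Of the 33 members 1 was called higher in the library labelled Htt-null (3.03%), beside 13.2% of all 650 miRNAs, and 5 were lower (15.2%), beside 11.8% of all. The members' median log2 ratio was -0.07, against -0.04 over all miRNAs, and 20 of 33 were below 0, against 345 of 650. The exact test at the assumed dispersion of 0.1 called 0 members in either direction, beside 4.77% of all miRNAs higher and 1.08% lower. The sum over the 55 members nevertheless differed, at a log2 ratio of -0.32 (-0.39 to -0.25), and the most abundant member held a large part of this difference. Counts of miR-467a-5p were 1499 in the library labelled wild type and 534 in the one labelled Htt-null (83.8 and 44.0 CPM), a log2 ratio of -0.93 (-1.07 to -0.79). Without it, the sum over the remaining 54 came to -0.13 (-0.20 to -0.05), and that of the miR-467 family moved from -0.54 (-0.63 to -0.45) to -0.22 (-0.34 to -0.09). The sums of miR-466 and miR-669 did not differ beyond counting error, at 0.08 (-0.12 to 0.27) and -0.07 (-0.19 to 0.06), and that of miR-297 was -0.40 (-0.67 to -0.13).

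The 5 members lower in RA-DIFF labelled Htt-null were miR-467a-5p, miR-467a-3p, miR-467b-5p, miR-297b-5p and miR-669e-5p. Those other than miR-467a-5p had few reads, and miR-467a-3p, under 1 CPM in both RA-DIFF libraries, passed the expression limit through its level in ESC. In the libraries labelled wild type and Htt-null, miR-467b-5p had 66 and 20 counts (-1.11), miR-297b-5p 52 and 14 (-1.25), miR-669e-5p 53 and 20 (-0.80) and miR-467a-3p 16 and 3 (-1.49). The member called higher, miR-466k, had 14 and 18 counts (0.84), with an interval of -0.17 to 2.04 that includes 0. Of the 13 members with at least 100 counts in either library, miR-467a-5p, miR-467c-5p and miR-467d-5p had intervals below 0. Counts of miR-467c-5p were 233 and 116 (13.0 and 9.56 CPM), a log2 ratio of -0.44 (-0.78 to -0.12), and those of miR-467d-5p 444 and 241 (24.8 and 19.9 CPM), a log2 ratio of -0.32 (-0.55 to -0.09). For miR-297b-3p, with 119 and 59 counts (6.65 and 4.86 CPM), the log2 ratio was -0.44 (-0.93 to 0.01), an interval that just includes 0. The highest ratios were also within counting error of 0: miR-669c-5p had 522 and 374 counts (29.2 and 30.8 CPM), a log2 ratio of 0.08 (-0.12 to 0.27), miR-467e-5p 337 and 249 counts (18.8 and 20.5 CPM), a log2 ratio of 0.12 (-0.12 to 0.36), and miR-466g 120 and 89 counts (6.71 and 7.33 CPM), a log2 ratio of 0.13 (-0.28 to 0.54). Since Htt itself went against the labels here, the direction of each of these differences is that of the labels only.

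The step from ESC to RA-DIFF was smaller for these families than for the miR-290 to miR-295 cluster of ES cells. In the libraries labelled wild type 3 of the 33 members were called higher in RA-DIFF (9.09%), beside 34.2% of all 650 miRNAs, and 14 were lower (42.4%), beside 31.1%. Their median log2 ratio was -0.66, against 0.06 over all, and the sum of the 55 was -0.41 (-0.46 to -0.36). In the libraries labelled Htt-null 2 members were higher (6.06%), beside 30.2% of all, and 7 were lower (21.2%), beside 39.5%. The median was -0.08, against -0.19 over all, and the sum -0.05 (-0.11 to 0.02). With the exact test at the assumed dispersion of 0.1, 4 members (miR-466k, miR-467e-3p, miR-669d-5p and miR-467d-3p) were called lower in the libraries labelled wild type, beside 22.6% of all, and 2 (miR-669e-5p and miR-467a-3p) in those labelled Htt-null, beside 28.8%. It called 0 members higher in either, beside 22.3% and 21.1%. The 4 comparisons share libraries: the wild-type ESC library, which stood highest in the sum, is the base of both the first genotype comparison and the differentiation comparison of the libraries labelled wild type, so their values are not independent of each other. For comparison, the miR-290 to miR-295 cluster, the main miRNAs of mouse ES cells, had medians of -6.14 and -4.49 over its 15 measured members above the limit in the libraries labelled wild type and Htt-null. The miR-302 and miR-367 cluster had medians of 1.72 and -1.33 over its 8 members above the limit, of opposite sign in the 2 pairs of libraries.

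By library size alone, the median of all miRNAs was shifted by -1.18 in the libraries labelled wild type and by -1.87 in those labelled Htt-null, where miR-10a-5p and miR-10b-5p took most of the reads of RA-DIFF. Relative to the median of all miRNAs, the members' median was -0.72 with TMM scaling and -0.69 by library size in the libraries labelled wild type, and 0.11 and 0.20 in those labelled Htt-null. With the RA-DIFF labels exchanged these relative values were -0.80 and 0.17 (TMM). In the genotype comparison of ESC the relative value was -0.64 with TMM and -0.63 by library size.

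With TMM scaling, members differed in how they went from ESC to RA-DIFF. The sums by family in the libraries labelled wild type were 0.26 (0.04 to 0.49) for miR-297, -0.78 (-0.93 to -0.63) for miR-466, -0.31 (-0.38 to -0.24) for miR-467 and -0.57 (-0.67 to -0.47) for miR-669. In the libraries labelled Htt-null they were 0.27 (-0.01 to 0.56), -0.11 (-0.29 to 0.07), -0.14 (-0.24 to -0.05) and 0.08 (-0.04 to 0.20). The lowest ratio among members with at least 100 counts was that of miR-669d-5p in the libraries labelled wild type and that of miR-669e-5p in those labelled Htt-null. For miR-669d-5p there were 194 counts in wild-type ESC, 116 in Htt-null ESC, 57 in RA-DIFF labelled wild type and 27 in the one labelled Htt-null, and both RA-DIFF libraries were below both ESC libraries (9.62, 5.28, 3.19 and 2.22 CPM). Its log2 ratios were -1.56 (-2.05 to -1.16) and -1.21 (-1.91 to -0.63) in the libraries labelled wild type and Htt-null. Likewise miR-669e-5p stood at 5.85, 5.50, 2.96 and 1.65 CPM, with log2 ratios of -0.96 (-1.48 to -0.50) and -1.67 (-2.50 to -1.05). So did miR-467d-3p, at 43.9, 25.7, 16.5 and 14.9 CPM, with log2 ratios of -1.40 (-1.60 to -1.22) and -0.78 (-1.03 to -0.54).

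In all, 14 of the 33 members above the limit had both RA-DIFF libraries below both ESC libraries, as did 247 of the 650 miRNAs. Among them were miR-669b-5p, at 16.9, 10.5, 9.17 and 9.06 CPM, and miR-466c-5p, at 8.14, 7.69, 7.38 and 6.10 CPM, whose steps were smaller. Several abundant members were not of this kind. The levels of miR-467a-5p were 77.0, 50.1, 83.8 and 44.0 CPM, higher in the library labelled wild type than in the one labelled Htt-null at either stage, with log2 ratios from ESC to RA-DIFF of 0.12 (0.02 to 0.23) and -0.19 (-0.34 to -0.04). Those of miR-669c-5p were 32.6, 19.2, 29.2 and 30.8 CPM, with Htt-null ESC apart from the other libraries, and log2 ratios of -0.16 (-0.33 to 0.01) and 0.68 (0.47 to 0.88). The same library was lowest for miR-467d-5p, at 29.7, 15.6, 24.8 and 19.9 CPM, and for miR-467e-5p, at 28.3, 16.1, 18.8 and 20.5 CPM. The log2 ratios from ESC to RA-DIFF were -0.26 (-0.44 to -0.08) and 0.35 (0.10 to 0.59) for miR-467d-5p, and -0.59 (-0.79 to -0.39) and 0.35 (0.11 to 0.59) for miR-467e-5p. Levels of miR-466g were 14.3, 7.14, 6.71 and 7.33 CPM, with wild-type ESC apart, and its log2 ratios were -1.08 (-1.41 to -0.78) and 0.04 (-0.35 to 0.42).

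With TMM scaling, the sum of the miR-297 family was above 0 with differentiation in both pairs of libraries, although the interval of the pair labelled Htt-null includes 0. By library size alone this sum was below 0, at -0.90 (-1.13 to -0.67) in the libraries labelled wild type and -1.60 (-1.89 to -1.32) in those labelled Htt-null. For miR-297b-3p the counts were 120, 75, 119 and 59 (5.95, 3.41, 6.65 and 4.86 CPM), and the intervals of its log2 ratios, 0.16 (-0.22 to 0.54) and 0.50 (-0.01 to 1.02), include 0. Counts of miR-297b-5p were 22, 24, 52 and 14 (1.09, 1.09, 2.91 and 1.15 CPM), with RA-DIFF labelled wild type above the other 3. Those of miR-297c-5p were 16, 15, 30 and 21 (0.794, 0.682, 1.68 and 1.73 CPM), with both RA-DIFF libraries above both ESC libraries. The most abundant of the family, miR-297a-5p, stood at 7.84, 6.60, 7.6 and 6.51 CPM, with log2 ratios of -0.04 (-0.39 to 0.30) and -0.02 (-0.43 to 0.39). With miR-467b-5p (1.39, 1.05, 3.69 and 1.65 CPM), miR-297b-5p and miR-297c-5p were the 3 members called higher in the libraries labelled wild type, and miR-297c-5p and miR-466d-3p the 2 in those labelled Htt-null. As miR-297c-5p was under 1 CPM in both ESC libraries and passed the limit through RA-DIFF, the limit itself bears on its call. In the other direction, miR-466i-5p, miR-466o-5p, miR-467a-3p and miR-467e-3p were under 1 CPM in both RA-DIFF libraries and passed through ESC.

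Members from outside Sfmbt2 are few and sparse. Of the 4, miR-466k had 75, 70, 14 and 18 counts, and its log2 ratio from ESC to RA-DIFF was -2.10 (-3.19 to -1.41) in the libraries labelled wild type and -1.05 (-1.94 to -0.34) in those labelled Htt-null. Its levels in ESC were 3.72 CPM in wild type and 3.18 CPM in Htt-null, a log2 ratio of -0.22 (-0.72 to 0.26). The arms of miR-466i had 43, 26, 14 and 9 counts (5p) and 45, 34, 26 and 23 counts (3p), and miR-467h, under the limit, 4, 5, 12 and 2. Their sum gave a log2 ratio of -0.43 (-0.77 to -0.10) between the genotypes in ESC, where that of the families as a whole was -0.68. With differentiation in the libraries labelled wild type their sum was at -1.17 (-1.60 to -0.75), an interval apart from that of all 55 members, -0.41 (-0.46 to -0.36), and their share of the families' counts went from 2.16% (1.85 to 2.51) in wild-type ESC to 1.28% (0.992 to 1.63) in RA-DIFF labelled wild type. In the libraries labelled Htt-null the sum was -0.52 (-1.01 to -0.05), and the share was 2.57% (2.16 to 3.04) in ESC and 1.86% (1.39 to 2.43) in RA-DIFF, with intervals that overlap. Both sums turn on miR-466k, which held 75 of the 167 reads of these 4 in wild-type ESC. Without it, an alternative added after seeing the data, they were -0.65 (-1.17 to -0.15) and -0.08 (-0.72 to 0.54), with intervals that overlap those of all members.

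Position in the intron was examined after the values had been seen. The members were divided into 19 from hairpins before the tandem array, 6 from the array and 24 from hairpins after it, with 2 more made from several of these places. In ESC the genotype ratio of the sums was -0.64 (-0.75 to -0.53) before, -0.57 (-0.67 to -0.46) in and -0.79 (-0.87 to -0.72) after the array, so all stretches were lower in the Htt-null library. Between the RA-DIFF libraries the log2 ratio was -0.21 (-0.37 to -0.06) before, -0.87 (-1.0 to -0.73) in and -0.07 (-0.17 to 0.02) after it. Array members took 23.4% of the families' counts in wild-type ESC, 25.4% in Htt-null ESC, 33.3% in RA-DIFF labelled wild type and 22.8% in the one labelled Htt-null, a comparison that needs no scaling. RA-DIFF labelled wild type was thus apart from the other 3. Most of these reads, 1551 of 1807 in wild-type ESC, were those of miR-467a-5p, which has its 10 copies in the array, and its own share was 20.1%, 21%, 29.1% and 19.1%. The other array members above the limit had log2 ratios from -1.49 to -0.27 between the RA-DIFF libraries, and miR-466c-5p, at -0.27 (-0.71 to 0.15), did not differ beyond counting error.

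**Figure D4:**
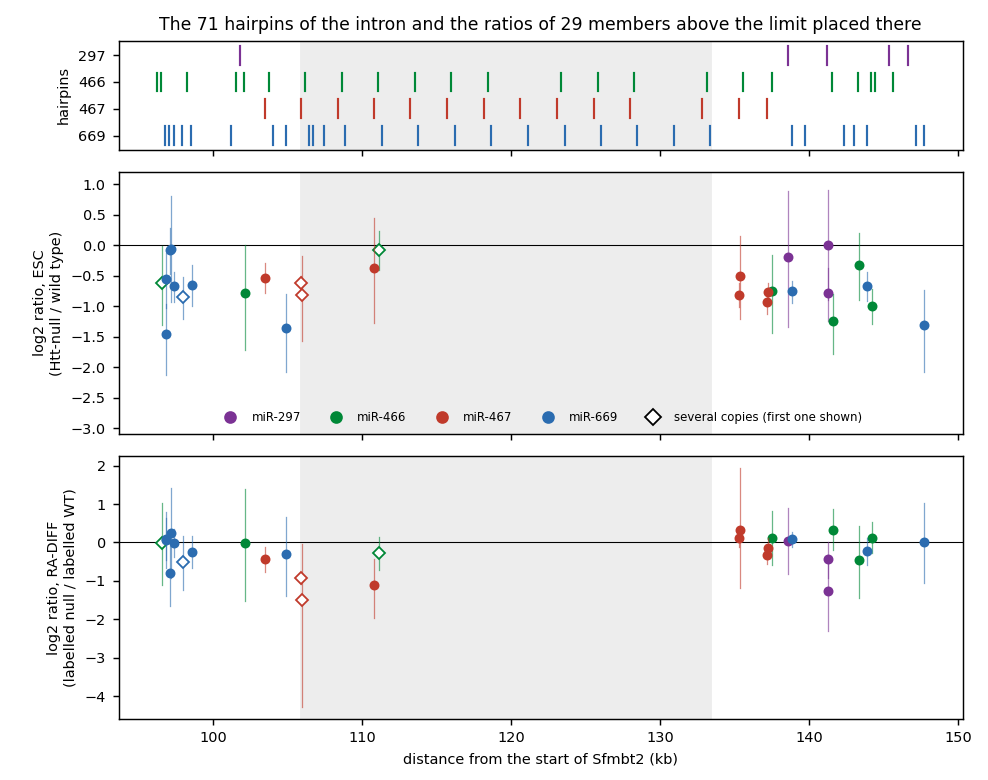
Top, the 71 hairpins of the 4 families by distance from the start of Sfmbt2 (kb); below, the log2 genotype ratio in ESC and, by the labels, in RA-DIFF of 29 members above the limit, placed at their hairpin (open diamonds, members with several copies, at the first one) with 95% counting intervals. Grey marks the tandem array, whose members sum to a log2 ratio of -0.57 in ESC and -0.87 in RA-DIFF, against -0.79 and -0.07 for those after it.

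The use of the hairpin arms was also compared after the values had been seen, as a measure that does not depend on scaling. Both arms were measured with at least 50 counts together in every library for 232 miRNA names, 10 of them in these families. With differentiation in the libraries labelled wild type, the 3p to 5p ratio was lower by more than 0.75 on the log2 scale for 7 of the 10, beside 31.5% of the 232, and higher for 2, beside 30.2%. In the libraries labelled Htt-null it was lower for 3 of the 10, beside 31.9%, and higher for 3, beside 29.7%. The clearest case was miR-467d, the only one of them with over 100 reads of each arm in every library. Its 3p arm made up 59.6% (57.1 to 62.1) of its reads in wild-type ESC (884 of 3p and 599 of 5p) and 62.2% (58.9 to 65.4) in Htt-null ESC, but 40.0% (36.4 to 43.6) and 42.9% (38.1 to 47.8) in the RA-DIFF libraries labelled wild type and Htt-null. The major arm was thus 3p in both ESC and 5p in both RA-DIFF libraries, with intervals that do not overlap between the stages and do overlap between the genotypes.

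Other hairpins of the miR-467 family moved the same way from a low level. The 3p share of miR-467e was 7.31% and 8.79% in wild-type and Htt-null ESC and 2.60% and 3.11% in RA-DIFF, and that of miR-467a was 3.12%, 2.65%, 1.06% and 0.56%. For miR-467c, with 13, 10, 3 and 5 reads of the 3p arm, it was 3.74%, 3.82%, 1.27% and 4.13%, so the last library was not below the first. The hairpins of miR-669 and miR-466 differed among themselves. The 3p share of miR-669l, with 0, 1, 5 and 3 reads of that arm, was 0%, 0.781%, 3.55% and 3.70%, higher in both RA-DIFF libraries, though its intervals overlap. For miR-669b the share was 3.13%, 6.85%, 6.82% and 5.17%, and for miR-669f 48.5%, 32.7%, 36.3% and 35.8%. For miR-466d it was 92.9%, 82.8%, 86.5% and 94.8%, and for miR-466c, with 6, 1, 1 and 3 reads of the 3p arm, 3.53%, 0.588%, 0.752% and 3.90%. Apart from miR-467d, the arm with more reads was the same in all 4 libraries, 3p for miR-297b and miR-466d and 5p for miR-466c, miR-467a, miR-467c, miR-467e, miR-669b, miR-669f and miR-669l.

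**Figure D5:**
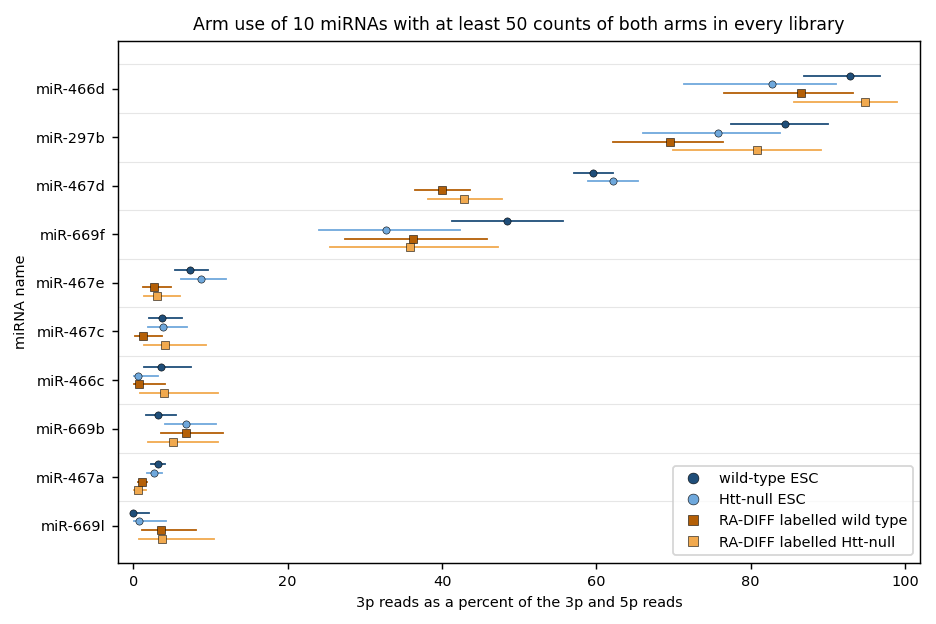
Reads of the 3p arm as a percent of both arms for 10 miRNAs with at least 50 counts of the arms together in every library, with 95% exact binomial intervals (circles, ESC; squares, RA-DIFF; dark, labelled wild type; light, labelled Htt-null). In miR-467d both ESC points, 59.6% and 62.2%, lie right of both RA-DIFF points, 40.0% and 42.9%.

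The host transcript was measured in the poly-A libraries. Sfmbt2 had 1986 counts in wild-type ESC, 1601 in Htt-null ESC, 1366 in RA-DIFF labelled wild type and 1054 in the one labelled Htt-null, or 22.9, 24.5, 12.2 and 10.7 TMM-normalised CPM. Both RA-DIFF libraries were below both ESC libraries. In ESC its log2 ratio between the genotypes was 0.10 (0.00 to 0.20), beside -0.68 for the summed miRNAs, so the mature miRNAs were lower in the Htt-null library while the mRNA of their host gene was not. In RA-DIFF it was -0.19 (-0.30 to -0.07) by the labels. With differentiation its log2 ratio was -0.91 (-1.01 to -0.81) in the libraries labelled wild type, beside -0.41 for the miRNA sum, and -1.20 (-1.31 to -1.08) in those labelled Htt-null, beside -0.05. The 2 assays were scaled separately, and these pairs of values are set side by side without a test. A gene on the other strand, Gm13261, overlaps the start of Sfmbt2, with 213, 198, 2 and 1 counts. The poly-A libraries were made by a strand-specific method and counted with the program's default strand option, as no other is named. Whether this setting separated the reads of the 2 genes in the overlap was not tested. Reads on 13 miRNA genes within Sfmbt2 in the poly-A table amounted to 10, 11, 5 and 2, too few for a comparison.

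Genes near Sfmbt2 and genes of the miRNA pathway were examined beside it. The 8 genes above the limit within 1 Mb had a median log2 ratio of -0.05 between the genotypes in ESC, with 5 of 8 below 0. The nearest of them to either side of Sfmbt2 were Itih5, at 0.14 (-0.18 to 0.46), and Prkcq, at 0.37 (0.01 to 0.74). Ratios of the 8 ran from -0.52 (Gata3) to that of Prkcq, with Taf3 and Rbm17 closest to 0, at 0.02 and -0.04. Of the 10 genes for miRNA processing and loading, 6 were below 0 in ESC with a median of -0.11. Over all 14417 genes above the limit, 8024 were below 0 and the median was -0.04. Drosha, the nuclear enzyme that frees the hairpin, stood at 301 CPM in wild-type and 260 CPM in Htt-null ESC (-0.22), Dgcr8, its partner, at 81.5 and 74.6 CPM (-0.13), Xpo5, the export factor, at 197 and 206 CPM (0.06), and Dicer1 at 226 and 211 CPM (-0.10). None passed 0.75 in ESC, where Ago4, at 1.93 and 2.90 CPM, had the largest ratio (0.58). Sfmbt1, the paralogue of Sfmbt2, was at 20.4 and 24.4 CPM (0.26) and Yy1 at 149 and 117 CPM (-0.34).

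In bulk libraries fewer cells of a type and less RNA per cell cannot be told apart, and markers of other cells that express Sfmbt2 or could be present were therefore listed. Of 8 trophoblast markers 7 were analysed, and their summed level was 24.8 CPM in wild-type ESC, 16 in Htt-null ESC, 9.49 in RA-DIFF labelled wild type and 4.58 in the one labelled Htt-null. Only Eomes and Krt7 among them passed the expression limit. Their levels in wild-type and Htt-null ESC were 12.6 and 7.70 CPM for Eomes and 4.59 and 2.39 CPM for Krt7. Under the limit over the 4 libraries but present in ESC was Ascl2, with 619 and 349 counts (7.14 and 5.35 CPM), a log2 ratio of -0.41 (-0.61 to -0.22). The remaining 4 had few reads in ESC, with Tpbpa at 0 counts in both libraries, Cdx2 at 0 and 3, Hand1 at 11 and 13 and Elf5 at 29 and 18. The 6 primitive endoderm markers summed to 36.2, 23.1, 28.7 and 88.9 CPM, and 5 of 6 were below 0 in ESC, with a median of -0.58. The 8 fibroblast markers summed to 38.9, 26.1, 568 and 2196 CPM. All 3 sums were thus lower in Htt-null than in wild-type ESC, as the miRNAs were. Their part in the miRNA difference was not tested.

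The members' genotype difference in ESC was set beside those of other miRNA clusters of ES cells, with which it shares its sign in one case and not in the other. The miR-290 to miR-295 cluster had a median log2 ratio of -0.43 over 15 miRNAs, of which 14 were below 0 and 1 was called lower. The miR-302 and miR-367 cluster, of early differentiation, had a median of 1.78 over 8 miRNAs, all called higher in the Htt-null library. Between the RA-DIFF libraries the medians of these clusters were 1.28 and -1.15, and that of the members was -0.07. These are values of 1 library against 1, and no test of the difference between clusters can be made.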

How the data were processed

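Deposited raw counts were used, for 1073 mature miRNAs and 32567 genes in 4 libraries each. Per the labels and methods, the authors trimmed small RNA reads with cutadapt 1.3, mapped those of miRNA length to miRBase with BWA (0.7.5a-r418), allowing 1 difference, and kept uniquely mapped reads. Poly-A RNA (50 bp reads) was aligned to GRCm38.p4 with TopHat2 2.0.14 and counted with HTSeq 0.6.1, and nothing was normalized before deposition. Reads that fit several near-identical names may be lost or shifted between them.

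TMM factors were computed with edgeR 4.0.16 (R 4.3.3) over the 4 libraries of an assay; ratios of single miRNAs and genes used a prior count of 2, and their intervals, like the sums, the plain counts. With 1 library per condition the quasi-likelihood test could not be fitted, so calls are by size (absolute log2 ratio over 0.75, mean log2 CPM above 0). The study's methods set these limits together with a p under 0.05 at an assumed dispersion of 0.1, and that full rule was run as an alternative. At the members' counts, a counting interval typically reached 0.49 to 0.73 log2 units to either side. Python 3.11.15 (pandas 2.3.3, matplotlib 3.10.9, scipy 1.17.1, numpy 2.4.6) served for tables and plots, and the steps were tested on simulated data.

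The members were taken by name alone, but they and the lists were chosen with earlier results of these data known. Named were the 3 highest members of each family, the 3 highest and 3 lowest ratios of each comparison among members with at least 100 counts, and members outside Sfmbt2; other names, the intron stretches and the arms were added after their values had been seen. A planned grouping by identical or near-identical sequence was not made, since 3 members had a sequence in the RefSeq table. Alternatives were library size, RLE factors, no expression limit, a prior count of 0.5, exact tests with assumed dispersions of 0.1 and 0.01 (p under 0.05), exchanged RA-DIFF labels and sums without miR-467a-5p or miR-466k, the last 2 chosen after seeing the data.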

Additional observations from a re-analysis of the deposited data

How the results depend on the processing

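Of 103 alternative values over 24 results, 56 moved by no more than counting error (for counts, 1.5 times), 45 moved by more and 2 whose interval had excluded 0 turned their direction. Of 49 alternative ratios 9 had the other sign, the remaining 7 of them for values whose size was within counting error of 0. No paired analysis was possible because each condition has 1 library per assay, all of them replicate 1, so that fewer than 2 replicate numbers are shared. Comparisons are taken in the order genotype in ESC, genotype in RA-DIFF by the labels, differentiation in the libraries labelled wild type, and differentiation in those labelled Htt-null.

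By library size alone the log2 ratio of the sum was -0.45, -0.80, -1.58 and -1.92, the members' median in the last 2 comparisons -1.82 and -1.86, and the members called lower 5, 10, 30 and 32, with 0 called higher in the last 3. All miRNAs moved too: 8.58%, 33.7%, 58.0% and 75.5% of them were called lower at this scaling. In the last 3 comparisons 6.28%, 16.5% and 11.0% of them were called higher, and their median was -1.13 and -2.06 in the last 2. With RLE factors the sum was -0.79, -0.24, -0.34 and 0.22, and 7 members were called higher in the last comparison (35.3% of all miRNAs). Without an expression limit 1, 7, 6 and 7 members were called higher (22.6%, 16.3%, 31.0% and 29.2% of all miRNAs), and 9, 23 and 12 lower in the last 3 (13.7%, 34.4% and 39.0% of all). With the exact test at an assumed dispersion of 0.1, the setting of the study's methods, the calls fell to 1, 0, 4 and 2 lower and, in the last 3 comparisons, 0 higher, so most calls in every comparison depend on the dispersion that is assumed; at 0.01 the member called higher in RA-DIFF was lost, leaving 0.

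With the RA-DIFF labels exchanged, the sum in RA-DIFF turned from -0.32 to 0.32 and the Sfmbt2 ratio from -0.19 to 0.19. The sum became -0.73 and 0.27 and Sfmbt2 -1.10 and -1.01 in the last 2 comparisons, the members called higher 5, 1 and 4 (11.8%, 34.2% and 31.1% of all), and those called lower 1 in RA-DIFF (13.2%) and 3 in the last comparison (35.8%). Without miR-467a-5p the sum was -0.13 in RA-DIFF and -0.58 in the libraries labelled wild type. The cause was not tested, beyond the share of miR-10a-5p and miR-10b-5p given above. Depth limits members with few counts. Under about 30 counts their intervals span more than a log2 unit, and so did some at higher counts. In ESC miR-669f-3p, at 95 and 36 counts, had an interval of -2.12 to -0.96.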
